A study of Homo sapiens with 6 samples.

Results

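Potassium channel subunits were examined in RBM12-depleted iNeurons with and without isoproterenol. Members were all listed genes whose symbol is KCN followed by letters and a final number, which gave 73 of the 19823 genes in the table, and 70 of them were among the 18130 genes that passed the filter on low values. KCNE1, KCNG2 and KCNK5, with means of 6.54, 3.80 and 5.63 normalized counts over the 6 samples, did not pass and were not tested. By channel class, the 73 members were 27 voltage-gated pore-forming subunits, 6 silent modifiers, 6 calcium- or sodium-activated subunits, 10 inward rectifiers, 11 two-pore-domain subunits and 13 auxiliary subunits.

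The iNeurons were glutamatergic neurons made from WTc11, a pluripotent line reprogrammed from human cells, and transcripts were measured by poly(A) RNA-seq. There were 3 samples of untreated neurons and 3 of neurons given isoproterenol, a β-adrenergic receptor agonist that raises cAMP. Both groups carried the RBM12 knockdown, so a response in neurons with intact RBM12, an RNA-binding protein, was not analysed here. The labels state no dose and no exposure time. The line is a single clone in which doxycycline drives Neurogenin 2, and the knockdown uses a catalytically dead Cas9 fused to a repressor, so the samples represent 1 genetic background. The study describes these neurons as having little native β2-adrenergic receptor. Nothing in the labels says whether the replicates were separate differentiations, so p-values measure the spread between these samples, which may be technical.

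Potassium channels let potassium leave the cell and so set the resting potential, repolarize action potentials and limit repetitive firing. Voltage-gated channels are tetramers of pore-forming subunits that open on depolarization, inward rectifiers and two-pore-domain channels carry current near rest, and calcium-activated channels couple firing to calcium entry. Receptors that act through G proteins and cAMP are known to alter many of these channels, often by phosphorylation or by direct G protein binding, neither of which RNA-seq reports.

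Recovered whole reads numbered 18116816 to 21488793 per sample. RBM12 itself stood at 263.3 ± 17.4 normalized counts without and 221.7 ± 23.6 with isoproterenol (SD, n = 3 each; limma adjusted p = 0.607). Its isoproterenol samples all lay below its untreated ones, as in 6.19% of all tested genes. With no sample lacking the knockdown, the extent of depletion cannot be read from these values. FOS, an immediate early gene of the cAMP response, stood at 621.2 ± 75.7 and 1735 ± 564 normalized counts (SD, n = 3 each; limma adjusted p = 0.435 unblocked and 0.0268 blocked by replicate number). Glutamatergic markers were present, with SLC17A6 at 13442 and SLC17A7 at 3055 normalized counts in untreated samples. MAP2, a general neuronal marker, stood at 33644 in the same samples. The pan-neuronal TUBB3 averaged only 77.7 in these samples and the neurogenic factor NEUROD1 7.53. Exonic overlap with other annotated genes, which can cost reads, was checked for the channel members but not for these markers. POU4F1, a factor of sensory neurons, had a mean of 9919 normalized counts without and 8935 with isoproterenol and was lower in blocked limma (adjusted p = 1.4e-07), the only 1 of 4 sensory or peripheral markers past FDR 0.05, and its part in the channel results was not tested. Markers of GABAergic neurons were low, with GAD1 at 16.7 and GAD2 at 21.9 normalized counts in untreated samples, and none of the 4 in that list passed FDR 0.05 in limma with or without the block. In bulk RNA, fewer cells of a type and less RNA per cell cannot be told apart.

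Of the members that passed FDR 0.05 with the replicate block, KCNA4 had the largest change, and the 250 bases before its RefSeq start are shown because cAMP-responsive promoters often hold a cAMP response element, TGACGTCA. The sequence is from GRCh38.p14, chr11:30017031-30017280, minus strand, and capitals mark CG dinucleotides.
KCNA4: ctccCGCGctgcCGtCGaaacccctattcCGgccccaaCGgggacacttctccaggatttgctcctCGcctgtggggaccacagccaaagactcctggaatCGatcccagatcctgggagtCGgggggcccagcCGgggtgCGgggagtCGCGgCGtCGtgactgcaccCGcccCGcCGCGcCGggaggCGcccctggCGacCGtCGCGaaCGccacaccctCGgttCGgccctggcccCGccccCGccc
The stretch of 250 bases was 73.2% G and C and held 30 CG dinucleotides. Over 35116 RefSeq promoters the medians were 58% and 11, and 12.42% held at least 30. Whether those promoters were counted over 250 or 300 bases is not stated here, and a longer stretch can hold more CG. The KCNA4 stretch contained neither the full element nor its shorter core TGACG on either strand. KCNF1, a silent modifier, was the only member with the full element among the 52 members that had an entry, and the 30 bases around it are shown with the element in capitals, from chr2:10911903-10911932, plus strand.
KCNF1: ttgaaaagctccTGACGTCAggctggaatt
Motifs were sought in windows of 300 bases, 250 before and 50 after the start. The full element was found in 1 of the 86 member windows (1.163%) and in 1.848% of all promoters of the same 300 bases. The core, which the full element includes, was found in 13 member windows (15.12%) and in 24.55% of all promoters. These matches describe letters only, and KCNJ9 had no entry.

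The 73 members covered a wide range of levels. Their mean normalized count was 1000 or more for 17, 100 or more for 44 and under 20 for 12. The 5 most abundant members held 39.2% of all member counts. Levels of different genes are compared here as normalized counts per kilobase of annotated exon, which understates genes with long annotated exons that these neurons do not use. Exonic bases were shared with another annotated gene by 32 of the 73 members, in 28 of them with a gene on the opposite strand, and such reads may be split or lost. Where a pair of group means is given, the untreated mean comes first.

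KCNIP1 and KCNIP2, which encode cytoplasmic partners of Kv4 channels, stood at 480 and 438 normalized counts per kilobase. The leak channel KCNK3 stood at 354 and the Kv11 channel KCNH2, the hERG channel of the heart, at 340 per kilobase. KCNJ3 and KCNJ9, subunits of the G protein-gated inward rectifier, reached 280 and 261 per kilobase. The highest members of the calcium- or sodium-activated class per kilobase were lower, with KCNN1 at 58.7 and KCNT2 at 52.7. By count KCNMA1 was highest in that class, with a mean of 1659 over the 6 samples. Its 39437 annotated exonic bases put it at 42.1 per kilobase. Among silent modifiers, which form no channel alone but alter Kv2, KCNS2 at 80.0 and KCNF1 at 77.0 per kilobase were highest.

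**Figure D1:**
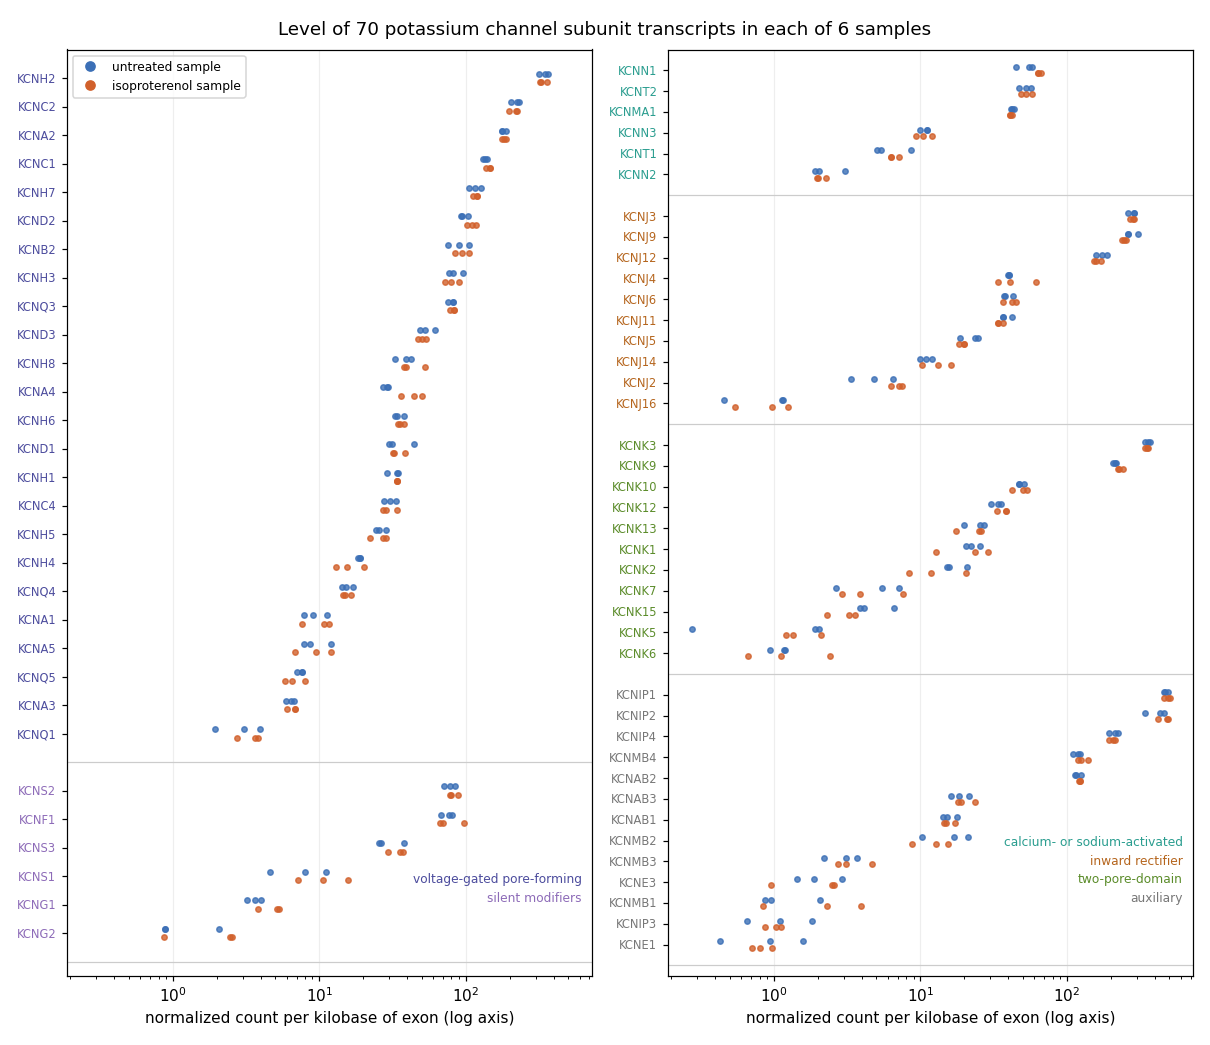
Normalized count per kilobase of annotated exon on a log axis for 70 members in each of the 3 untreated (blue) and 3 isoproterenol (orange) samples, grouped by channel class. KCNE1 lay lowest, at 0.908 on average, KCNIP1 reached 480, and for most members plotted the samples of both groups overlap.

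The share of each class in all member counts varied little among samples. Voltage-gated subunits held 58.5% to 60.1% in the 6 samples, auxiliary subunits 13.3% to 15.1%, two-pore-domain subunits 9.81% to 10.2%, inward rectifiers 9.29% to 10.1%, calcium- or sodium-activated subunits 5.16% to 5.37% and silent modifiers 1.41% to 1.72%. Since the shares add up to the whole, a change in 1 class shifts those of the others.

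No member passed FDR 0.05 in the comparison of isoproterenol with untreated samples by limma without the replicate block, where 3 of 18130 genes did (0.0165%). At an unadjusted p under 0.05 there were 5 members of 70, 7.14% against 7.68% of all genes. edgeR without the block called 0 members, against 0.0165% of all genes, and DESeq2 without the block called 0, against 0.127%. At an unadjusted p under 0.05 edgeR had 5 members, against 8.03% of all genes, and DESeq2 had 3, against 4.71%. The median log2 fold change was 0.026 over the 70 members and 0.0015 over all genes, with 39 members above 0 (55.7%, against 50.5% of all genes) and 31 below. The lowest value was -0.60 for KCNK15 and the highest 0.67 for KCNMB1, both of which averaged under 20 normalized counts and did not pass the test.

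Same-numbered samples deviated together, so the replicate number was also used as a block. In that limma fit 5 members passed FDR 0.05 (7.14%), where 885 genes did (4.88%). KCNA4, KCNIP2 and KCNN1 were higher, 3 of 70 against 2.82% of all genes, and 2 of 70 were lower, KCNJ9 among them, against 2.06%. edgeR with the block called 4 of these, all but KCNN1, where it called 5.39% of all genes. DESeq2 with the block called 0 members, where it called 0.767% of all genes, with 4 members at an unadjusted p under 0.05, against 4.92% of all genes, and 13 given no adjusted p. These shares rest on 5 or fewer called members and lie near those of all genes.

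Groups did not overlap in 3 members that were higher, KCNA4, KCNN1 and KCNK9, against 6.73% of all genes, and in 2 that were lower, KCNJ9 and KCNK15, against 6.19%. In all 3 pairs 13 members were higher, where 18.5% of all genes were, and 8 were lower, where 17.6% were.

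**Figure D2:**
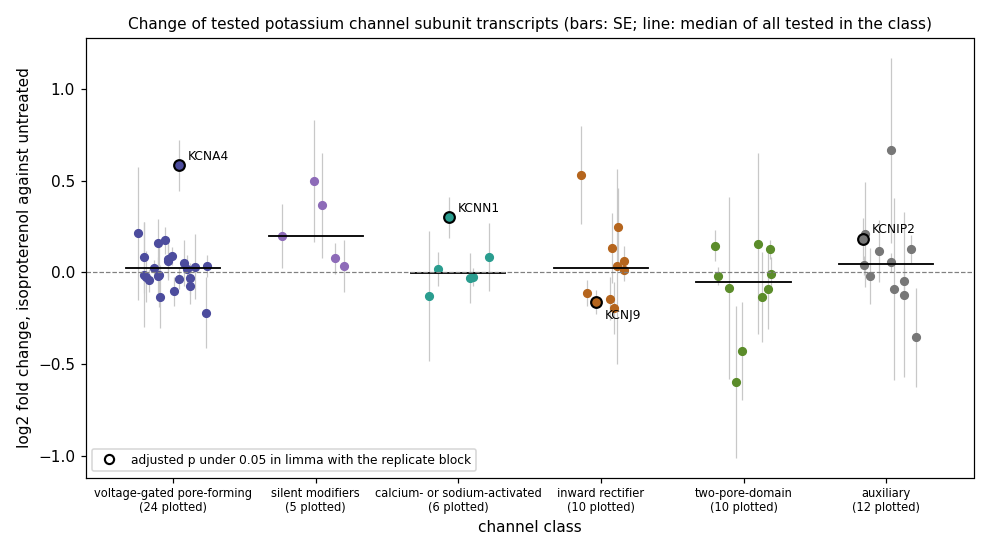
Log2 fold change of isoproterenol against untreated samples (limma without the block, pseudocount 1) for 67 tested members by channel class, with bars for the SE and a line for the median of all tested members of the class. The black-ringed members, KCNA4, KCNIP2, KCNN1 and KCNJ9, passed FDR 0.05 with the replicate block.

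KCNA4 (ENSG00000182255) encodes Kv1.4, a fast-inactivating A-type channel of axons and terminals. It lies on chr11:30009730-30017030, minus strand (GRCh38), and shares no exonic bases with another annotated gene. Replicates 1 to 3 held 123.2, 115.1 and 125.2 normalized counts without isoproterenol, and with it 212.5, 152.2 and 186.7. All 3 isoproterenol samples lay above all 3 untreated ones. The means were 121.2 ± 5.31 and 183.8 ± 30.3 (SD, n = 3 each), a log2 fold change of 0.58 (SE 0.14). Unblocked limma gave an adjusted p of 0.207, blocked limma 5.66e-04, blocked edgeR 2.06e-04 and blocked DESeq2 0.160. It no longer passed FDR 0.05 in blocked limma once pair 1 was left out. Leaving out isoproterenol replicate 2 brought it past FDR 0.05 in unblocked limma, with an adjusted p of 0.0307.

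The other Kv1 genes did not pass. KCNA2, the most abundant Kv1 subunit and part of the axonal channels near the initial segment, averaged 3375 ± 141 and 3425 ± 102 normalized counts (SD, n = 3 each; log2 fold change 0.02, SE 0.05, limma adjusted p = 0.943). KCNA5, which the study placed on a list of isoproterenol targets chosen on other libraries, held 25.1, 34.8 and 22.8 normalized counts without isoproterenol and 19.96, 27.7 and 34.9 with it. Its groups overlapped fully, with a log2 fold change of -0.01 (SE 0.29, limma adjusted p = 0.995). KCNAB2, a β subunit that binds Kv1, averaged 2038 ± 95.3 and 2115 ± 20.5 normalized counts (SD, n = 3 each; limma adjusted p = 0.837).

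KCNIP2 encodes KChIP2, a calcium sensor that binds Kv4 channels and speeds their return from inactivation. It lies on chr10:101825974-101843920, minus strand (GRCh38), and shares 444 exonic bases with the opposite-strand gene KCNIP2-AS1, which held at most 13.5 normalized counts in any sample. Replicates 1 to 3 held 1564, 1169 and 1462 normalized counts without isoproterenol, and with it 1679, 1420 and 1639. The groups overlapped, but each isoproterenol sample lay above the untreated sample of the same number, by 0.10, 0.28 and 0.17 on the log2 scale. The log2 fold change was 0.18 (SE 0.11), and limma gave an adjusted p of 0.766 unblocked and 0.00201 blocked, with 0.0016 from blocked edgeR. Without pair 2 it did not pass FDR 0.05 in blocked limma, and without untreated replicate 2 its unblocked log2 fold change was 0.06.

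The Kv4 pore-forming subunits gave no call. KCND2 (Kv4.2), the dendritic A-type channel, held 562.8, 575.7 and 623.8 normalized counts without isoproterenol and 706.5, 614.7 and 671.9 with it, with a log2 fold change of 0.18 (SE 0.07) and a limma adjusted p of 0.596, or 0.0859 with the block. KCND3 averaged 1056 ± 132 and 980.2 ± 67.0 normalized counts (SD, n = 3 each; limma adjusted p = 0.800) and shares 1036 exonic bases with DDX20 on the opposite strand. KCNIP1 averaged 1594 ± 55.2 and 1637 ± 70.2 (SD, n = 3 each; limma adjusted p = 0.909). Over the 12 tested auxiliary members, which include the β subunits of Kv1 and of the large-conductance channel, log2 fold changes ran from -0.35 to 0.67, with 7 above 0 and 5 below.

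KCNN1 encodes SK1, a small-conductance channel opened by calcium through bound calmodulin. It lies on chr19:17951293-18000085, plus strand (GRCh38). Replicates 1 to 3 held 246.4, 236.1 and 192.4 normalized counts without isoproterenol, and with it 270.4, 286.0 and 270.8. All isoproterenol samples lay above all untreated ones, and the log2 differences within pairs were 0.13, 0.28 and 0.49. The log2 fold change was 0.30 (SE 0.11), and limma gave an adjusted p of 0.536 unblocked and 0.0494 blocked, with 0.0509 from blocked edgeR. It did not pass FDR 0.05 in blocked limma without pair 2 or without pair 3, and without untreated replicate 3 its unblocked log2 fold change was 0.19. KCNMA1, the pore of the large-conductance channel, averaged 1673 ± 31.6 and 1645 ± 29.4 normalized counts (SD, n = 3 each; limma adjusted p = 0.939). KCNT2, a sodium-activated subunit, averaged 376.8 ± 33.1 and 381.5 ± 30.8 (SD, n = 3 each; limma adjusted p = 0.981).

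KCNJ9 encodes GIRK3, a subunit of the inward rectifier that opens on binding Gβγ. It lies on chr1:160081538-160090563, plus strand (GRCh38). Replicates 1 to 3 held 1097, 1280 and 1103 normalized counts without isoproterenol, and with it 993.8, 1069 and 1039. All isoproterenol samples lay below all untreated ones, and the means were 1160 ± 104 and 1034 ± 37.9 (SD, n = 3 each). The log2 fold change was -0.16 (SE 0.07), and limma gave an adjusted p of 0.595 unblocked and 0.0265 blocked, with 0.0168 from blocked edgeR. It did not pass FDR 0.05 in blocked limma without pair 1 or without pair 2, and without untreated replicate 2 its unblocked log2 fold change was -0.09. Of its channel partners, KCNJ3 (GIRK1) averaged 1369 ± 74.3 and 1380 ± 42.8 normalized counts (SD, n = 3 each; limma adjusted p = 0.979), and KCNJ6 (GIRK2) averaged 786.9 ± 65.8 and 824.1 ± 85.3 (SD, n = 3 each; limma adjusted p = 0.892). Over the 10 inward rectifiers, log2 fold changes ran from -0.19 to 0.53, with 6 above 0 and 4 below.

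KCNQ3 encodes Kv7.3, a subunit of M-channels, whose slow current restrains repetitive firing. It averaged 1012 ± 37.5 and 1037 ± 39.6 normalized counts (SD, n = 3 each; limma adjusted p = 0.928).

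**Figure D3:**
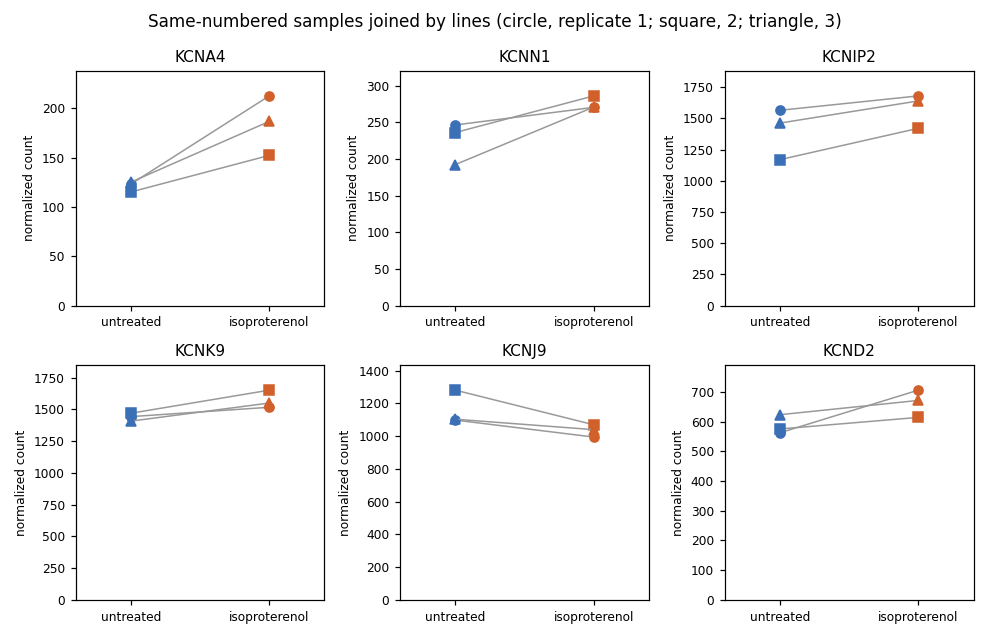
Normalized counts of 6 members in the 3 untreated (blue) and 3 isoproterenol (orange) samples, same-numbered samples joined by lines, axes from 0. KCNA4, KCNN1 and KCNK9 lay higher and KCNJ9 lower in every isoproterenol sample than in every untreated one, while the groups of KCNIP2 and KCND2 overlapped and both were higher within each pair.

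Two-pore-domain subunits carry background leak current, and none passed FDR 0.05 in limma with or without the block. KCNK9 (TASK-3) held 1442, 1469 and 1407 normalized counts without isoproterenol and 1516, 1650 and 1549 with it, which do not overlap. Its log2 fold change was 0.13 (SE 0.05), with a limma adjusted p of 0.596, or 0.0565 with the block. KCNK3 (TASK-1) averaged 2209 ± 81.1 and 2178 ± 57.4 normalized counts (SD, n = 3 each; limma adjusted p = 0.955). KCNK2 (TREK-1), which cAMP-dependent kinase closes and which the study placed on its isoproterenol target list, held 67.9, 90.0 and 65.2 normalized counts without isoproterenol and 50.9, 87.6 and 35.9 with it. The groups overlapped, with a log2 fold change of -0.43 (SE 0.27, limma adjusted p = 0.741, or 0.218 with the block). It was -0.77 without isoproterenol replicate 2, -0.14 without isoproterenol replicate 3 and -0.29 without untreated replicate 2. Of the 10 tested two-pore-domain members, 3 had a log2 fold change above 0 and 7 below.

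No silent modifier passed FDR 0.05 in limma with or without the block, nor did the 4 voltage-gated members that follow. KCNB2, a Kv2 delayed rectifier, averaged 339.1 ± 56.7 and 355.6 ± 40.3 normalized counts (SD, n = 3 each). KCNC2, a Kv3 channel of fast-spiking cells that overlaps an antisense gene by 2298 exonic bases, averaged 1414 ± 81.3 and 1374 ± 95.6 (SD, n = 3 each). KCNH2 averaged 2477 ± 180 and 2419 ± 142 and KCNH7 580.7 ± 52.2 and 587.6 ± 19.5 (SD, n = 3 each). All 5 tested silent modifiers had a log2 fold change above 0, from 0.03 for KCNF1 to 0.50 for KCNS1, with a median of 0.20. Their adjusted p-values were at least 0.775 in limma without the block, and at least 0.186 with it, the lowest being that of KCNS1. KCNS2 averaged 421.8 ± 33.6 and 444.6 ± 29.97 normalized counts (SD, n = 3 each).

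By class, the median log2 fold change was 0.02 for the 27 voltage-gated, -0.0031 for the 6 calcium- or sodium-activated, 0.02 for the 10 inward rectifier, -0.05 for the 10 tested two-pore-domain and 0.05 for the 12 tested auxiliary members. Within pairs 1, 2 and 3 the voltage-gated median was 0.03, -0.02 and 0.08 and the silent modifier median 0.07, 0.34 and 0.39. The two-pore-domain median was 0.07, -0.05 and -0.19 in the same pairs and so differed in sign among them. With 1 replicate left out in turn, the voltage-gated, calcium- or sodium-activated, inward rectifier and two-pore-domain medians each took the other sign at least once. The voltage-gated median was -0.02 without untreated replicate 3, the calcium- or sodium-activated median 0.04 without untreated replicate 1, the inward rectifier median -0.06 without isoproterenol replicate 2 and the two-pore-domain median 0.09 without isoproterenol replicate 2. The silent modifier and auxiliary medians stayed above 0, with 0.10 without untreated replicate 2 and 0.02 without isoproterenol replicate 1 as their lowest values.

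A list of 45 genes of known channel partners, regulators and related channels held 40 listed genes, all tested. Without the block 0 of 40 passed FDR 0.05 in limma, against 0.0165% of all genes, with 6 at an unadjusted p under 0.05, against 7.68%. With the block 4 of 40 were higher, against 2.82% of all genes, and 2 lower, against 2.06%. The list was chosen with earlier results of these data known. Its genes had a median level of 1949 normalized counts, against 208 over all listed genes, so these shares are not matched for level. Some of the called genes are given here. LRRC55, a γ subunit of the large-conductance channel, averaged 1582 ± 145 and 1874 ± 210 (SD, n = 3 each; limma adjusted p = 0.536, or 2.55e-05 with the block). The ubiquitin ligase NEDD4L, which acts on Kv7 channels, and the scaffold ANK2 were also higher. NEDD4L averaged 3733 ± 95.2 and 4015 ± 201 and ANK2 27005 ± 1345 and 28421 ± 1123 normalized counts (SD, n = 3 each; blocked limma adjusted p = 0.0178 and 9.62e-04). CALM2 encodes calmodulin, the calcium sensor of SK and Kv7 channels, and was lower. It averaged 24317 ± 522 and 22169 ± 1008 normalized counts (SD, n = 3 each; blocked limma adjusted p = 2.45e-08), and all isoproterenol samples lay below all untreated ones. CALM3, which encodes the same protein, averaged 36453 ± 927 and 36934 ± 291 normalized counts (SD, n = 3 each; limma adjusted p = 0.595 with the block).

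**Figure D4:**
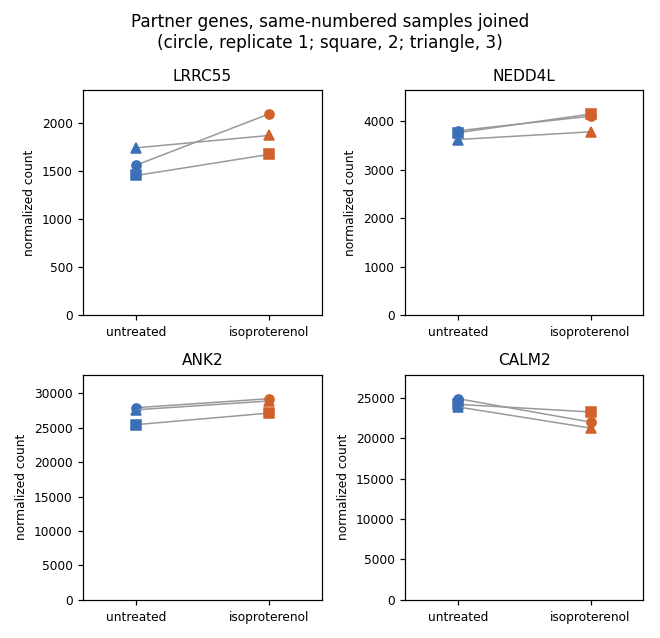
Normalized counts of 4 partner genes past FDR 0.05 with the replicate block, in 3 untreated (blue) and 3 isoproterenol (orange) samples, same-numbered samples joined, axes from 0. LRRC55, NEDD4L and ANK2 were higher and CALM2 lower in every pair.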

How the data were processed

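Poly(A) RNA-seq libraries were prepared by the authors with a directional kit, per the labels of all 6 samples, aligned to GRCh38 with STAR and counted per gene with featureCounts. The deposited values are a signal, the gene's read count divided by the DESeq2 size factor of its sample, by the authors. FastQC, Subread, featureCounts and DESeq2 are named in the submitters' processing notes. Tool versions, the annotation release and the strand setting are not given in the sources used here, so opposite-strand overlaps are stated. Values were whole multiples of 1 step per sample (tolerance 0.02 reads, 100% of values), which gave back reads for edgeR and DESeq2.

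Groups and replicate numbers came from the sample titles. Genes with more than 5 reads in at least 4 samples were tested, 18130 of 19823. The design assigned edgeR to a count table and limma to normalized values, so limma 3.58.1 (R 4.3.3, trend and robust moderation) was fitted without a block on log2(normalized count + 1), where fold changes of low genes are understated. Tests were two-sided, and p-values were adjusted by the Benjamini-Hochberg method across the tested genes. In the 11587 genes that averaged 100 or more, deviations of same-numbered samples from group means correlated at 0.269, 0.493 and 0.388, each over 0.1, and replicate numbers were therefore treated as pairs. Blocked values are printed where they change a call. edgeR 4.0.16 and DESeq2 1.42.0 were alternatives. The limma fit was also run on simulated counts that held no replicate effect, so that run cannot show how the unblocked fit behaves with one. Libraries of a group were distinct (chi-square per degree of freedom 3.44 to 5.73).

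Positions, exon lengths and overlaps came from GENCODE release 44, which held 73 of 73 members, and promoters from RefSeq on GRCh38.p14. Named members were those past FDR 0.05 with or without the block and those with an unadjusted p under 0.05 without it. KCNK2 and KCNA5 from the study's target list and those that did not pass the filter were also named. The rule further took the 2 highest per kilobase in each class, with voltage-gated members split into Kv1, Kv2, Kv3, Kv4, Kv7 and Kv10 to Kv12. KCNK15, KCNMB1, KCNS1, KCNMA1, KCNAB2 and KCNJ6 fall outside that rule and were named after their values were seen. Some genes that the rule or the lists hold are not reported here, but they remain in the counts and medians. The members and lists were chosen with earlier results of these data known.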

Additional observations from a re-analysis of the deposited data

How the results depend on the processing

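Unblocked limma called 0 members, as did the other unblocked alternatives with all 6 samples (TMM and total-count scaling, pseudocounts 0.5 and 5, no filter, a mean of at least 50, edgeR and DESeq2). The replicate block gave 5 in limma, 4 in edgeR and 0 in DESeq2. Leaving out 1 replicate gave 0 to 1 members past FDR 0.05 without the block, the 1 being KCNA4 without isoproterenol replicate 2. Leaving out each pair in turn, an alternative added after the data were seen, gave 2, 1 and 3 in limma with the replicate block without pairs 1, 2 and 3, and no member was called in all 3. Members whose groups do not overlap went from 5 to between 8 and 15 with 1 replicate left out, where fewer samples make separation easier. The median log2 fold change over all members was 0.013 to 0.048 with 1 replicate left out, 0.013 without pair 1 and 0.045 without pair 2. By class, leaving out 1 replicate gave -0.020 to 0.053 for voltage-gated, -0.030 to 0.035 for calcium- or sodium-activated, 0.10 to 0.37 for silent modifiers, -0.057 to 0.049 for inward rectifiers, -0.24 to 0.088 for two-pore-domain and 0.019 to 0.12 for auxiliary members. Inward rectifiers were at -0.050 with a mean of at least 50 and at -0.072 without pair 2, and auxiliary members at 0.0096, 0.070 and 0.077 without pairs 1, 2 and 3. Of 24 named and tested members, 13 kept their sign under every alternative run, the 5 called ones included, and 11 did not, none of which was called. With 1 replicate left out, the log2 fold change ran from -0.0014 to 0.056 for KCNA2, -0.20 to 0.19 for KCNA5, -0.044 to 0.20 for KCNB2, -0.090 to 0.016 for KCNC2, -0.14 to 0.13 for KCNF1, -0.090 to 0.015 for KCNH2, -0.047 to 0.083 for KCNH7, -0.034 to 0.038 for KCNJ3, -0.046 to 0.0072 for KCNK3 and -0.051 to 0.076 for KCNT2. Without pair 1 it was -0.020 for KCNA2, 0.14 for KCNA5 and -0.015 for KCNQ3. Without pair 2 it was 0.14 for KCNA5, -0.12 for KCNF1 and 0.0066 for KCNK3. Without pair 3 it was -0.061 for KCNH7 and -0.0092 for KCNJ3. The cause of these changes was not tested. With 3 samples a group, low members had the widest errors, such as KCNK15 (SE 0.42) and KCNMB1 (SE 0.51).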
